A study of Mus musculus with 12 samples.

Results

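The motile cilium genes described here are 47 genes of a table of 55291, chosen by name: axonemal dyneins and the factors that assemble them, radial spoke and central pair proteins, doublet proteins, and the transcription factor Foxj1 with further genes of its programme. All 47 were found in the table. They were measured in single E7.0 embryos, the time at which the mouse node begins to form, 5 female and 7 male. The embryos were wild type, of the C57BL/6J strain and untreated, and came from 7 litters, of which litters 3, 6 and 9 gave both sexes. Each library was made from 1 whole embryo with a kit for very small amounts of RNA, so fewer cells of a type and less RNA per cell cannot be told apart in any value below. The series asked whether female and male embryos differ in expression at the gastrulation stage at which it studied alcohol-induced craniofacial malformation.

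The node is a pit at the distal tip of the gastrulating mouse embryo whose cells carry motile cilia, and the rotation of these cilia drives the leftward flow that first sets left apart from right. The forkhead factor Foxj1 turns on the genes of the motile axoneme, and RFX factors such as Rfx3 bind a DNA motif, the X-box, before the starts of many cilium genes. In the mouse node the homeobox factor Noto acts upstream of Foxj1. Cilia of the node mostly lack the central pair of microtubules that cilia of the airway have, whereas dynein arms, which bend the axoneme, are needed in both.

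The X-box is shown first, since it was found in the stretch before the start of several of the genes. Of the 47 genes, 36 had a promoter in the RefSeq table for GRCm38.p6, which holds 250 bases before the start and a short stretch after it. The 14-base motif GTTGCCNNNGNAAC, searched on both strands, was found in 6 of the 36 (16.7%) and in 136 of the 27025 genes of the promoter table (0.503%). These 30-base sites carry the motif in capitals, read on the strand that spells it, from 5′ to 3′:
Spag16 chr1:69826859-69826888 (+): ggcaacgcGTTGCCGTAGTAACtgcggacg
Pifo chr3:106001496-106001525 (+): tgtactacGTTGCCAAGGGAACggaaccgc
Hydin chr8:110266948-110266977 (-): taccatctGTTGCCACAGCAACcgcagagt
Dnaaf2 chr12:69198425-69198454 (+): cgtgctttGTTGCCATAGTAACgcctggga
Cfap44 chr16:44394764-44394793 (-): ttactgcgGTTGCCATAGCAACgtccctcc
Tekt4 chr17:25471582-25471611 (-): ggttcctgGTTGCCTAAGGAACattgtata
Counted from the start of the transcript in the promoter table, the leftmost base of the motif lay at -103 in Spag16, -27 in Cfap44, -21 in Hydin, -20 in Pifo, -17 in Dnaaf2 and 0 in Tekt4.

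A symmetric 13-base form, GTTGCNNNGCAAC, chosen after these promoters had been read, was found in 6 of the 36 genes (16.7%) and in 68 of the 27025 (0.252%). The 6 were Dnaic2, Dnah7b, Ccdc103, Tekt2, Tekt4 and Dynlrb2, and Tekt4 held both forms. The 250 bases before the start are shown for 3 genes whose values in the embryos are given below, on the strand of the gene, with either form of the X-box in capitals:
Pifo chr3:106001498-106001747 (-): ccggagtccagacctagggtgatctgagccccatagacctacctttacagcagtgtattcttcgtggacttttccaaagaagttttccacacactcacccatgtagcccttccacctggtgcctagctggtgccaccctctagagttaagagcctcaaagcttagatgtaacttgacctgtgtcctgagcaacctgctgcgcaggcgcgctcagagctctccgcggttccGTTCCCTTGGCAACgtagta
Dnaic2 chr11:114727169-114727418 (+): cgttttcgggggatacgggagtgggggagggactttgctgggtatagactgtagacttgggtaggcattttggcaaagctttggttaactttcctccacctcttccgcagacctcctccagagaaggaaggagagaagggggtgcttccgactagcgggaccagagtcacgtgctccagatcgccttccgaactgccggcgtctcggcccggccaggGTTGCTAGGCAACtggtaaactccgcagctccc
Dynlrb2 chr8:116504765-116505014 (+): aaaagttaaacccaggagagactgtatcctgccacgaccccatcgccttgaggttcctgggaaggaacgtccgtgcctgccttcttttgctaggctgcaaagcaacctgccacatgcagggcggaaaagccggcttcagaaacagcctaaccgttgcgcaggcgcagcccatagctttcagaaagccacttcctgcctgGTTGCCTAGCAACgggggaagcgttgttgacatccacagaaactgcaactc
The shorter core GTTGCC, which every 14-base match contains, was found in 18 of the 36 (50%) and in 14.1% of the 27025. The forkhead motif TGTTTAC was found in Cfap43 and Ak7 alone of the 36 (5.56%), beside 4.05% of all, and the TATA box TATAAA in 3 (8.33%), beside 15.7% of all. A match is a description of the letters in this window, and binding was not measured.

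Levels of the 47 genes in the whole embryo were spread widely. Levels are normalized counts, that is, counts per gene scaled by the authors to a common library size. Of the 47, 4 genes averaged 1000 or more over the 12 embryos, 24 between 100 and 1000, and 19 below 100. A filter of at least 10 normalized counts in at least 5 embryos was passed by 43 of the 47, and by 16455 genes of the table. Mcidas, Hydin, Spag17 and Cfap54 fell below it. In 30 genes every embryo was above 0, and 17 were listed at 0 in 1 embryo or more. Dnaic2, Stk33 and Spag17 were listed at 0 in all 5 females, and no gene was listed at 0 in all 7 males. Counted in units of 1000000 fragments, and taking the most common low value as 1 fragment, depth averaged 91.8 ± 5.44 over the 5 female libraries (SD) and 98.2 ± 10.3 over the 7 male ones (SD). A value of 0 therefore allows up to 2.49 to 3.40 normalized counts, depending on the library, with counting error alone considered.

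**Figure D1:**
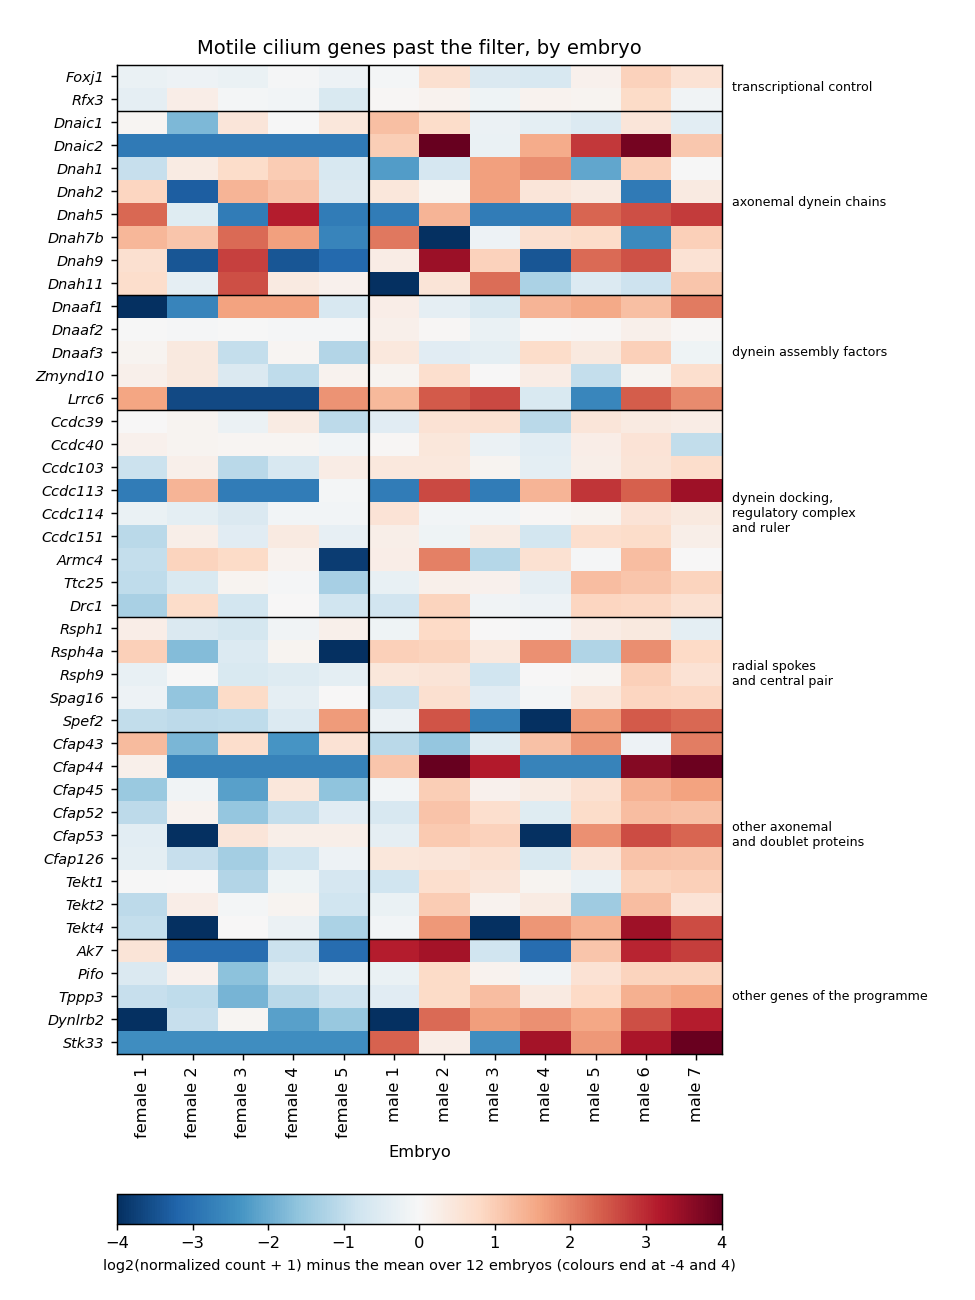
Level of the 43 motile cilium genes past the filter (rows, grouped by role) in each of 12 embryos (columns, female left of male), as log2(normalized count + 1) minus the mean over the 12 embryos; red is above and blue below that mean. Males 2, 6 and 7 are mostly red, and the mean over the 43 genes is 0.85 in male 2, 1.21 in male 6 and 1.16 in male 7, while the females lie between -0.92 and -0.46.

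To set genes beside each other, levels were taken per kilobase of the longest protein-coding transcript. On that scale the 47 genes had a median of 46.2, against 506 for 45 genes of the primary cilium and intraflagellar transport. The level per kilobase of the 47 ran from 0.46 in Spag17 to 1309 in Dnaaf2. There were 18 genes at 100 or more per kilobase and 14 below 10. Foxj1 and Pifo were alike per kilobase, at 554 and 543.

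**Figure D2:**
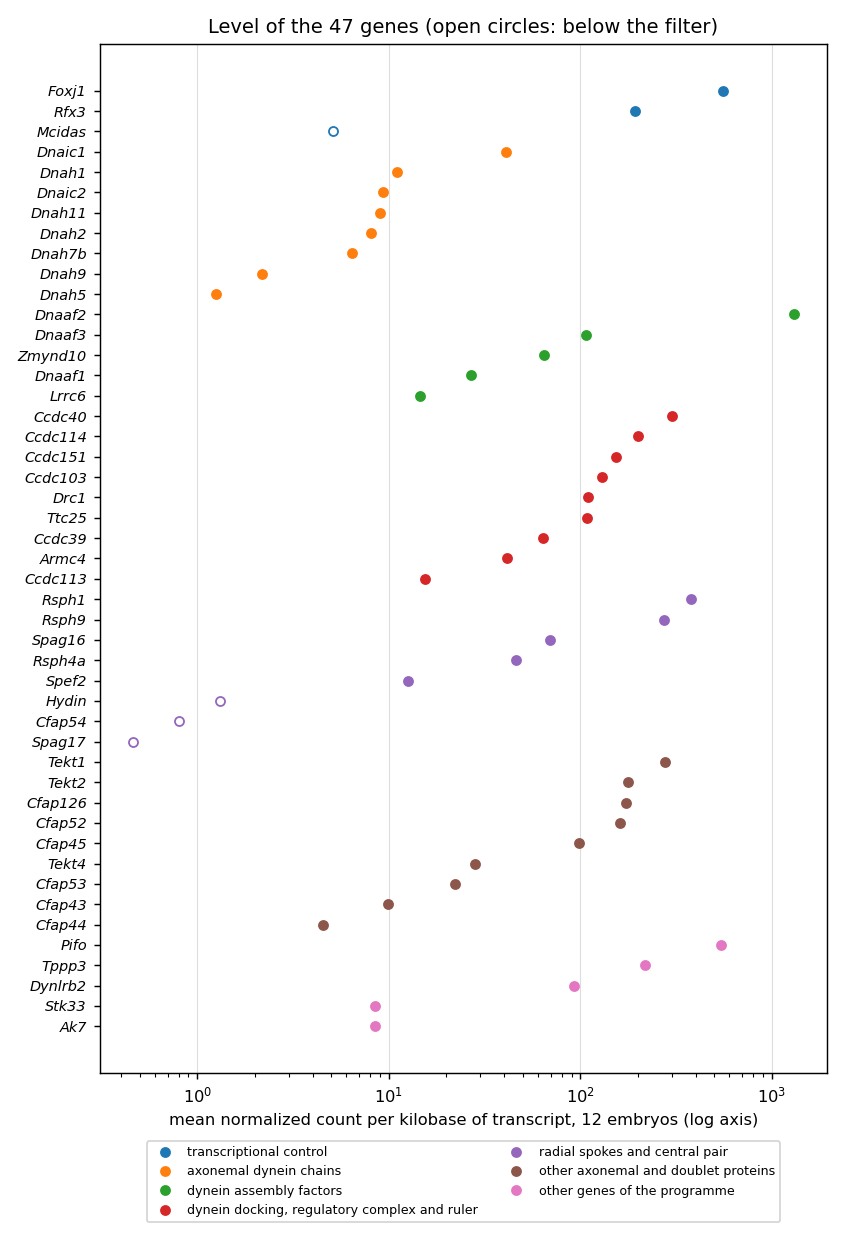
Mean normalized count per kilobase of transcript over 12 embryos (log axis) for each of the 47 genes, ordered within role groups, with open circles for the 4 genes below the filter. Dynein chains lie between 1.26 and 40.7, whereas each of the other groups has at least 1 gene above 200. In the assembly factors that gene is Dnaaf2 alone, which shares 71.4% of its exonic bases with other genes, and the next is Dnaaf3 at 108.

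Of the transcriptional regulators, Foxj1 and Rfx3 were present in every embryo and Mcidas was not. Foxj1, the forkhead factor that turns on motile cilium genes (chr11:116330704-116335399, GRCm38), had 1153, 1186, 1138, 1331 and 1195 normalized counts in the females. In the males it ranged from 882 through a median of 1537 to 2590.1. The female values lay inside the male range, and their spread was smaller, with means of 1201 ± 76.7 over the 5 females (SD) and 1636 ± 657 over the 7 males (SD). Rfx3 (chr19:27761721-28011166) had 1346, 2051, 1614, 1577 and 1115 in the females, and from 1528 through 1829 to 2912 in the males. Its highest value was in male 6, and the other embryos overlapped. Mcidas, a coregulator that drives the multiciliated fate, was listed at 0 in 2 of 5 females and 4 of 7 males. Its highest values were 54.9 in female 4 and 41.9 in male 6.

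The 8 axonemal dynein chains had the lowest median of the 7 role groups, 8.55 per kilobase. Dnaic1, an intermediate chain of the outer arm and the highest of them per kilobase, had 96.8, 25.3, 129, 89.3 and 124 normalized counts in the females. In the males Dnaic1 ranged from 61.7 through 77.2 to 209, so the sexes overlapped. Dnaic2 (chr11:114727408-114757889), the other intermediate chain of the outer arm, was listed at 0 in all 5 females. In males 1 to 7 Dnaic2 had 13, 123, 4.81, 18.9, 49.5, 99.7 and 14 normalized counts, so every male lay above every female. The inner arm heavy chains Dnah1, Dnah2 and Dnah7b did not follow Foxj1. Dnah1 had 53.0, 126, 169, 205 and 65.2 in the females, against 20.8 through 101 to 371 in the males. Dnah2 had 144, 7.06, 201, 172 and 52.4 in the females, against 10.1 through 102 to 245 in the males. Dnah7b had 103, 89.4, 197, 129 and 5.71 in the females, against 0 through 63.8 to 177 in the males. In none of these 3 did the sexes separate, and Dnah7b has near-identical neighbours among which reads could be split. The outer arm heavy chains Dnah5 and Dnah9 were listed at 0 in at least 1 embryo of each sex, with means of 19.7 and 30.1 over all embryos. Dnah11, the outer arm chain that is mutated in the mouse iv strain with randomised left and right, was above 0 in all 12 embryos and highest in female 3, at 440.2.

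Among the 5 cytoplasmic factors that assemble dynein arms, Dnaaf2 was the most abundant, averaging 4292 ± 74.3 over the 5 females (SD) and 4540.3 ± 470.1 over the 7 males (SD). By embryo Dnaaf2 had 4388, 4235, 4357, 4243 and 4236 in the females and from 3669.5 through 4522 to 5057 in the males, with the females inside the male range. Of its exonic bases, 71.4% are shared with annotated genes at the same place, among them Gm49383 with a mean of 4953 and Gm49384 with a mean of 3647. Gm49383 and Gm49384 lie on the strand of Dnaaf2, so counting by strand would not separate them, and these genes cannot be told apart. For sharing genes on the other strand, the sources used here do not say whether counting used strand. Dnaaf1, Dnaaf3, Zmynd10 and Lrrc6 averaged between 30.4 and 239. Dnaaf1 shares 20.7% of its exonic bases with Taf1c, whose mean was 2110, and its own values ran from 0 to 129.5 in females and 27.4 to 181 in males.

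The 9 genes of dynein docking, of the regulatory complex between doublets and of the ruler that spaces the arms ranged from 15.4 to 301 per kilobase. Ccdc40, part of that ruler and the highest of the group, had 1639.8, 1561, 1520.0, 1545 and 1329 normalized counts in the females. In the males it ranged from 738 in male 7 through 1492 to 2127 in male 6. The embryo lowest in Ccdc40 was thus among the highest for other genes of the programme. Its partner Ccdc39 averaged 231 over the 12 embryos. The docking genes Ccdc114, Ccdc151, Ttc25 and Armc4 averaged 584, 336, 289 and 145, and Drc1 of the regulatory complex 270.1. Ccdc114 was highest of these, between 382 and 528 in females and between 525 and 833 in males.

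The radial spoke head genes Rsph1 and Rsph9 were above 100 normalized counts in every embryo, while Rsph4a and most genes of the central pair reached low values. Rsph1 had 524, 292, 267, 395 and 498 normalized counts in the females and from 330.1 through 439 to 751 in the males. Rsph9 had 202, 242, 162, 174 and 189.7 in the females and from 141 through 339.9 to 482 in the males. For both genes the sexes overlapped. Rsph4a, the third spoke head gene, had 210.2, 31.8, 74.1, 118 and 4.49 in the females and from 47.1 through 205 to 400.1 in the males, also with overlap. The central pair genes Hydin, Spag17 and Cfap54 were each listed at 0 in 3 or more embryos of each sex. Spag17 reached 24.7 in 1 male, and 15.7% of its exonic bases are shared with Wdr3, whose mean was 17416. Spef2, another central pair gene, had 20.1, 19.0, 19.8, 27.6 and 134 in the females, against 1.35 through 135 to 236 in the males. Spag16 was the exception among central pair genes, between 73.4 and 379 in females and between 123 and 408 in males.

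Proteins of the doublet microtubules and their linkers were lower in females on average in all 9 genes, though none passed the test given below. Tekt1, a tektin filament protein and the highest of the group per kilobase, had 356, 365, 159.8, 323 and 226 normalized counts in the females. In the males Tekt1 ranged from 211 through 512 to 701, with males 2, 3, 4, 6 and 7 above every female. Cfap52, an inner protein of the doublet (chr11:67924806-67965651), had 139.6, 321, 97.8, 149.8 and 210.0 in the females, against 184 through 485 to 688 in the males. Males 1 and 4 lay within the female range and the other 5 above it. Cfap126 (chr1:171113918-171126967) had 119, 81.2, 59.9, 88.4 and 134 in the females, against 102 through 219 to 344 in the males, and male 4 alone lay within the female range. Cfap45, another inner protein, averaged 91.0 ± 71.2 over the 5 females (SD) and 256 ± 116 over the 7 males (SD). Cfap44, which tethers an inner dynein, was listed at 0 in 4 of 5 females and 2 of 7 males, and reached 103 in male 2.

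The 5 further genes of the programme had the most negative median log2 fold change of the role groups, -3.01, female over male, in a group that holds 3 genes already called by the authors. Pifo, which was first described in the mouse node and acts in cilium disassembly, had 314, 525.6, 147, 323 and 389 normalized counts in the females. In the males Pifo ranged from 386 through 699 to 862, with female 2 and female 5 above the lowest male. Tppp3, a tubulin-binding protein (chr8:105467493-105471526), had 121, 115, 62.8, 109.7 and 130.4 in the females. In the males Tppp3 ranged from 169 through 405 to 695, and every male lay above every female. Dynlrb2, a light chain of cytoplasmic dynein (chr8:116504974-116515915), had 0, 9.00, 18.9, 3.25 and 5.63 in the females. In males 1 to 7 Dynlrb2 had 0, 89.7, 59.7, 66.3, 54.2, 111 and 165, so male 1 was listed at 0 and the other 6 lay above every female. Stk33, a serine and threonine kinase (chr7:109279223-109439081), was listed at 0 in all 5 females. In males 1 to 7 Stk33 had 27.9, 5.66, 0, 55, 17.4, 53.1 and 85.3. Ak7, an adenylate kinase of motile cilia, had 11, 0, 0, 3.55 and 0 in the females, against 0 through 55.8 to 82.1 in the males.

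**Figure D3:**
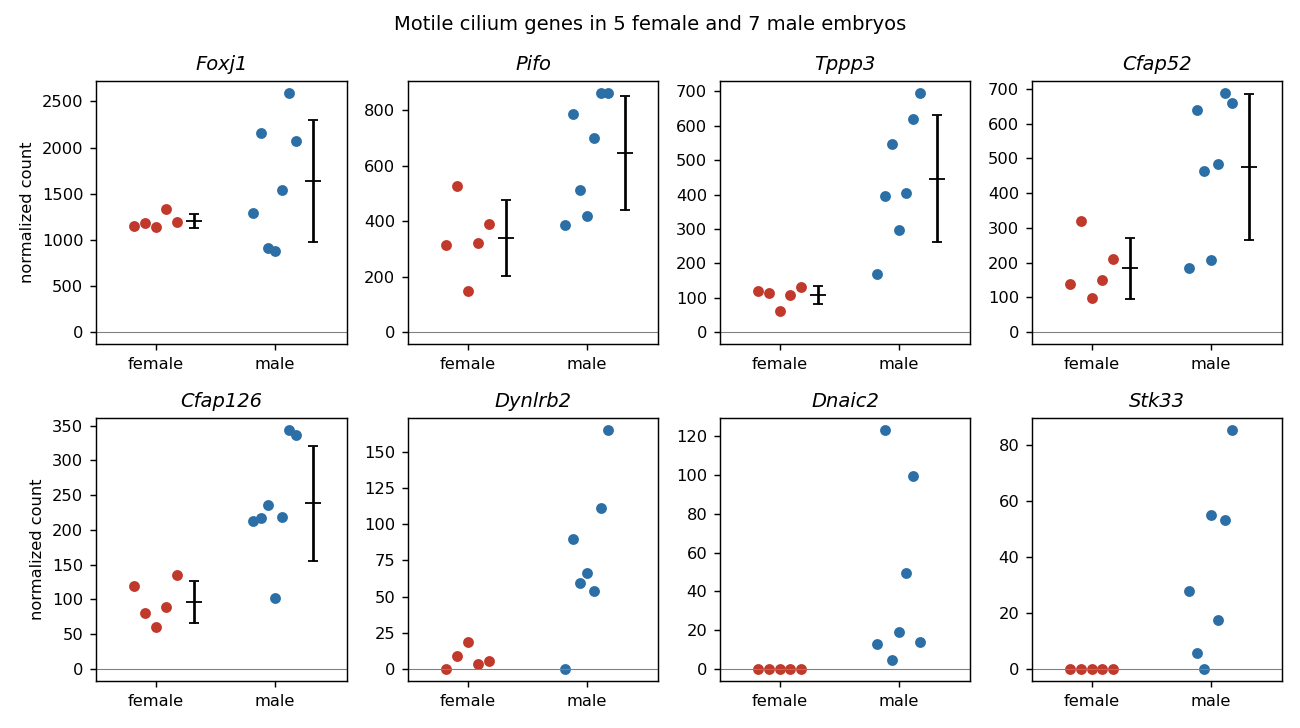
Normalized counts of Foxj1, Pifo and 6 genes called in the authors' deposited table in 5 female (left) and 7 male embryos (right), 1 point per embryo; the bars give the mean ± SD and are left out for genes listed at 0 in any embryo. Tppp3 and Dnaic2 do not overlap between the sexes, and Foxj1 does.

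Between the sexes no motile cilium gene passed an adjusted p of 0.05. limma with Benjamini-Hochberg adjustment over all 16455 genes called 7 genes in either direction (0.0425%), 4 lower in females (0.0243%) and 3 higher (0.0182%), and none of the 43. The log2 fold change, female over male, was negative in 39 of the 43, beside 50.2% of all genes, and its median was -0.70 in the 43 and -0.00077 over all genes. At an unadjusted p under 0.05, 16 of the 43 were lower and 0 higher in females, beside 5.64% lower and 5.13% higher over all genes. All females lay below all males in 2 of the 43, Dnaic2 and Tppp3, and in 0.377% of all genes, and above them in 0 of the 43 and 0.395% of all. Dnaic2, Cfap44 and Stk33 reached 10 normalized counts in no female, so they passed the filter through the males alone. Their direction was thus partly set by the filter, and all 3 are among the 39 and the 16. The 43 genes were chosen with these values known, so the counts describe them and nothing is read from them. Foxj1 differed by -0.34 (SE 0.25, limma adjusted p = 0.662) and Rfx3 by -0.31 (SE 0.17, limma adjusted p = 0.543).

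Tppp3 had the smallest adjusted p of the 43, with a log2 fold change of -1.95 (SE 0.34, limma adjusted p = 0.0767). Without male 1, the male with the lowest Tppp3, that change was -2.16 and passed the threshold (limma adjusted p = 0.00718). Dnaic2 had a log2 fold change of -4.83 (SE 0.86, limma adjusted p = 0.0872), a size that depends on the pseudocount of 1 since the females are at 0. With a pseudocount of 0.1 it was -8.08 and passed (limma adjusted p = 0.0453). The other named changes missed the threshold, among them Cfap126 at -1.26 (SE 0.33, limma adjusted p = 0.230), Cfap52 at -1.32 (SE 0.39, limma adjusted p = 0.275) and Pifo at -0.97 (SE 0.31, limma adjusted p = 0.296). Stk33 differed by -4.26 (SE 1.07, limma adjusted p = 0.215) and Dynlrb2 by -3.01 (SE 1.15, limma adjusted p = 0.369), again with females at or near 0. The 4 positive values were those of Dnah7b, 1.27 (SE 1.18), Dnah11, 1.19 (SE 0.94), Dnah1, 0.18 (SE 0.72), and Ccdc40, 0.11 (SE 0.22). The signs of Dnah1 and Ccdc40 turned when single embryos were left out.

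The authors' deposited table, which rests on their own model, calls 6 of the 46 genes with an adjusted p, all lower in females, beside 0.691% of 18821 genes lower and 0.446% higher. In the authors' deposited table the adjusted p is 8.86e-07 for Tppp3, 3.54e-06 for Dnaic2 and 0.000548 for Stk33. The same authors' deposited table gives 0.00933 for Cfap126, 0.0352 for Cfap52 and 0.0378 for Dynlrb2. Foxj1 has 0.511 and Rfx3 0.541 in the authors' deposited table.

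**Figure D4:**
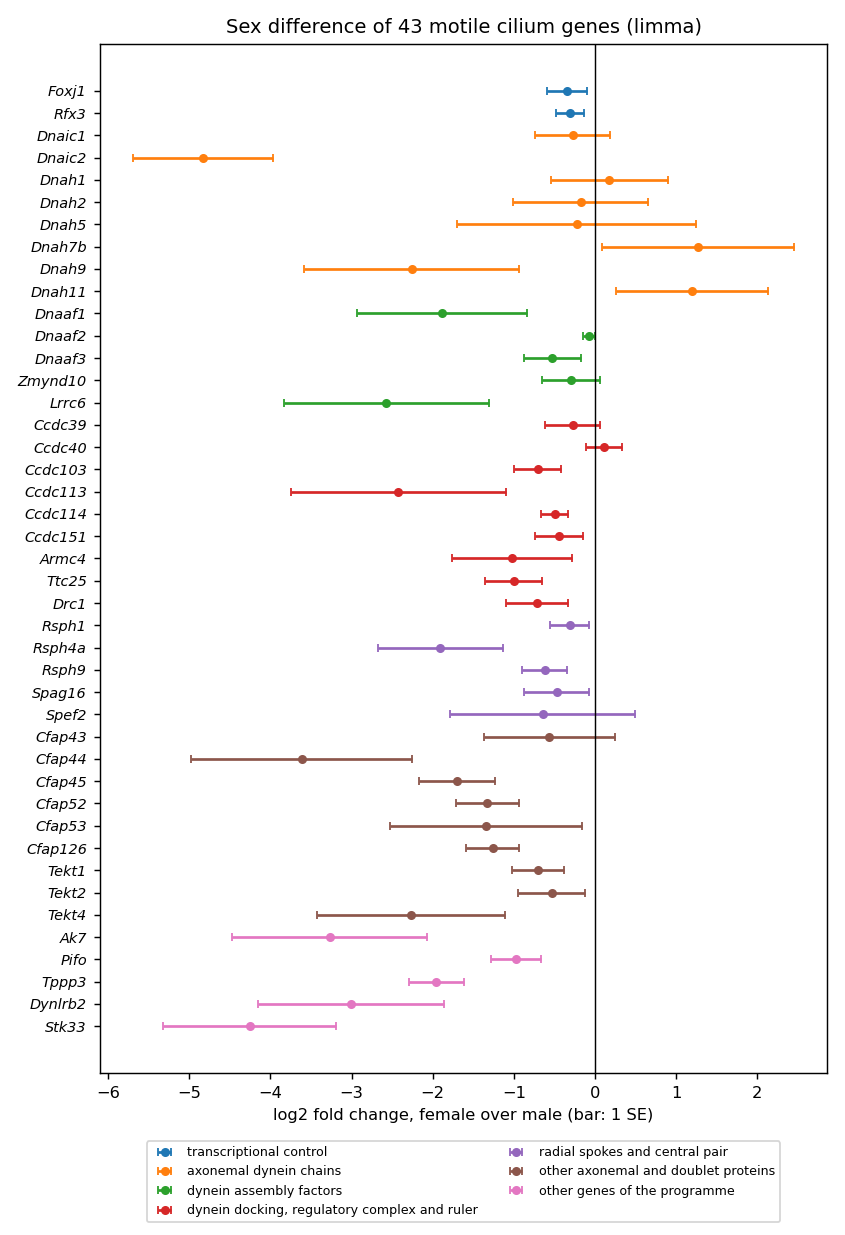
Log2 fold change, female over male, of the 43 genes past the filter (points, grouped by role) with 1 SE from limma (bars); values left of 0 are lower in females. Of the 43 points, 39 lie left of 0, and none passed an adjusted p of 0.05.

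Within the litters that held both sexes, the direction was mostly the same. These litters hold males 2, 6 and 7, in which most of the genes were highest, and leave out males 1 and 4. The genes and embryos are those already compared above, so the values within litters are no separate evidence. In 17 of the 43 genes the female was below every male of its litter in litters 3, 6 and 9, as in 8.24% of all genes past the filter. These 17 included Tppp3, Cfap52, Cfap126, Pifo, Tekt1, Dnaic2, Dynlrb2 and Rfx3, but not Foxj1. For Tppp3 the female lay below the mean of its male littermates by a log2 difference of -1.93 in litter 3, -2.97 in litter 6 and -2.41 in litter 9. For Cfap52 the differences were -1.96, -2.55 and -1.64 in the same order. For Foxj1 they were -0.29, -0.81 and -0.79, and in litter 3 the female, at 1153, lay above male 3, at 917. Each of these litters held 1 female, so no test was run within a litter. With litter as a block over all embryos, 0 of the 43 genes passed.

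The highest embryo of a gene was most often 1 of the same 3 males. Of the 43 genes, 15 were highest in male 6, 11 in male 7 and 8 in male 2, where 9.99%, 11.8% and 7.32% of all genes were highest. A male was highest in 40 of the 43 (93.0%), beside 60.4% of all genes. The mean level of the 43 genes, on a log2 scale relative to the 12 embryos, was -0.51, -0.92, -0.54, -0.46 and -0.88 in females 1 to 5. In males 1 to 7 that mean level was -0.15, 0.85, -0.04, -0.19, 0.47, 1.21 and 1.16. The sexes did not overlap in this mean, which is given without a test because the genes were chosen with their values known. The filter adds to that gap, since Dnaic2, Cfap44 and Stk33 reached 10 normalized counts in no female and so passed through the males alone. Over the 28 genes with a mean of at least 100, an alternative added after the values were seen, the females lay between -0.68 and -0.083 and the males between -0.22 and 0.67, with overlap. That mean had an r of 0.91 with Noto.

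Noto, which marks the node and notochord, varied over the embryos in the same order as many of these genes. Noto had 800.4, 740.0, 438, 779.7 and 559 normalized counts in the females, against 697 through 1063 to 1787 in the males. Its highest values were in males 7, 6 and 2, and only males 1 and 4 lay within the female range. Over the 12 embryos the Pearson r of Foxj1 with Noto was 0.76 and Spearman's rho 0.69, and r was 0.58 without males 6 and 7, the embryos farthest from the median of Noto. Among the 7 males r was 0.84. The mean level of the 43 genes had an r of 0.90 and a rho of 0.83 with Noto, and an r of 0.81 with Foxj1. These correlations are over embryos of both sexes from 7 litters, so differences in sex, litter and progress of development cannot be told apart in them. They are given without a p because the genes were chosen for this relation.

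Chrd and Nog, secreted BMP antagonists of the node, followed Foxj1 less or not at all. Chrd had 1309.6, 1640.1, 1133, 1227 and 1041 in the females, against 928 through 1462 to 2486 in the males. Its r with Foxj1 was 0.52 and its rho 0.35, and r was 0.21 without males 1 and 6. Nog had 154, 77.6, 88.8, 48.5 and 808 in the females, against 111 through 199.9 to 539 in the males. Its r with Foxj1 was -0.15 and its rho -0.13, and r was 0.30 without female 5 and male 4, which were its highest embryos.

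**Figure D5:**
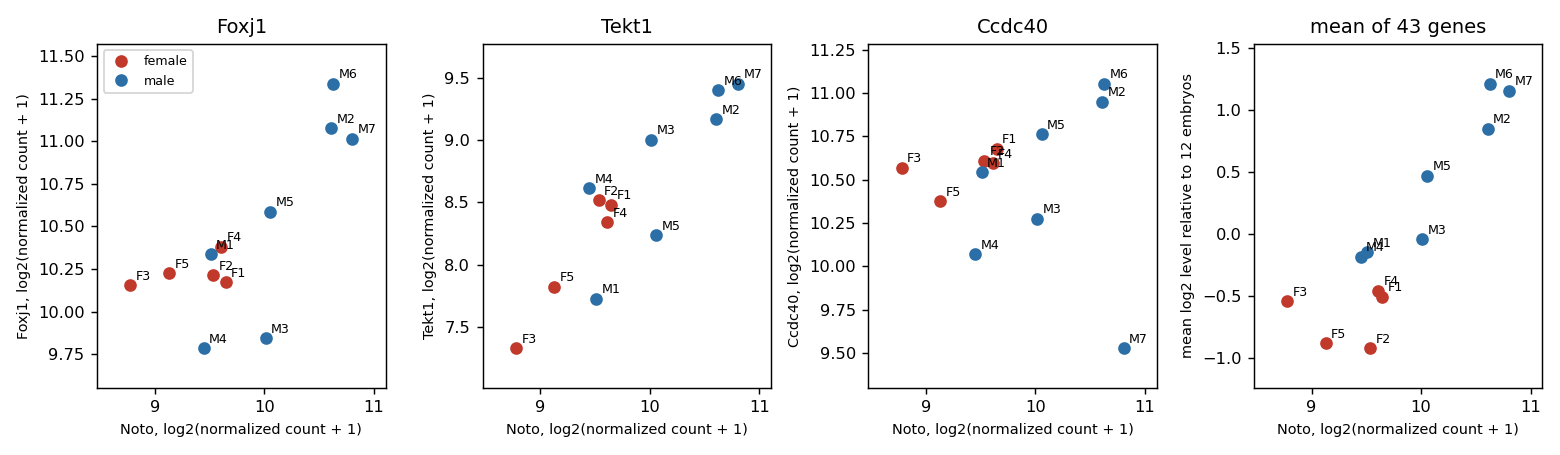
Foxj1, Tekt1, Ccdc40 and the mean relative level of the 43 genes (vertical axes, log2 scale) against Noto (horizontal axes, log2(normalized count + 1)), 1 point per embryo, labelled by sex and replicate. Tekt1 and the mean level increase along Noto with r of 0.90 each, and Ccdc40 does not, with r of -0.02, male 7 being high in Noto and lowest in Ccdc40.

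The genes varied together over embryos, and the doublet proteins most closely with Noto. The median r with Foxj1 was 0.52 over the 42 other genes and 0.02 over all genes, and 24 of the 42 (57.1%) had an r of 0.5 or more, beside 9.12% of all genes. With Noto the median r was 0.53 over the 43 and 0.02 over all genes. Over the 903 pairs of the 43 genes the median r was 0.31, with 78.4% of pairs above 0, against -0.0026 and 49.7% over pairs of all genes. With values centred within each sex, the median r over pairs of the 43 was 0.15. By role, the median r with Noto was 0.80 for the doublet proteins, 0.78 for the further genes of the programme, 0.64 for docking, regulatory complex and ruler, 0.61 for Foxj1 and Rfx3, 0.49 for spokes and central pair, 0.34 for assembly factors and -0.01 for dynein chains. Noto itself averaged 663 ± 158 over the females (SD) and 1207 ± 436 over the males (SD). The values by role were not centred within sex, so a shared sex difference and covariation among embryos cannot be told apart in them. The members closest to Foxj1 were Spef2 (r = 0.88), Rsph9 (r = 0.80) and Ak7 (r = 0.76), and the farthest were Dnah7b (r = -0.51), Dnah2 (r = -0.41) and Dnah1 (r = -0.25). Closest to Noto were Tekt1, Cfap52 and Pifo, each with an r of 0.90, and Tppp3 and Cfap45 with 0.87.

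Among genes with a mean of at least 100, those most like Foxj1 over the 12 embryos were no motile cilium genes of this set. Among 12536 genes with a mean of at least 100, the 10 with the highest r were Hnrnpul2 (0.95), Fam32a (0.93), Larp7 (0.91), Tedc1 (0.90), Ctxn1 (0.89), Atrx (0.88), 2810025M15Rik (0.88), Epb41l4aos (0.85), Kdm4a (0.85) and Ppdpf (0.85). Rsph9 stood at rank 43 and Noto at rank 89. Spef2, with a mean of 88.8, was left out of this ranking by the cutoff, and its r of 0.88 lies within the range of these 10 genes. The 10 genes most like Noto held Tekt1 at rank 7 and Cfap52 at rank 10. Capsl, Cfap69 and the ciliary transition zone gene B9d1 were also among them. The rest were Gpx2 at rank 1 (r = 0.92), 2410004P03Rik, Ccnb2, Cd24a and Gm11532, none of them in the cilium lists used here.

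Other motile cilium genes, listed with earlier results of these data known, moved with the 47. Of 105 such genes, 78 passed the filter, and the log2 fold change of female over male was negative in 59 of them, with a median of -0.32. None passed the limma threshold in either direction, and 18 were lower and 0 higher in females at an unadjusted p under 0.05. Over all genes past the filter, 50.2% were negative, and 5.64% were lower and 5.13% higher at that p. All females lay below all males in 0.377% of all genes. The list's level over embryos had an r of 0.93 with that of the 43 genes. Enkur, a gene of motile cilia and sperm tails, had 54.7, 22.7, 40.5, 45.0 and 19.0 normalized counts in the females, against 70.7 through 145 to 293 in the males, with no overlap. In the authors' deposited table Enkur has an adjusted p of 0.000707 and Capsl, a calcium-binding protein gene, 0.0314. Genes listed for the primary cilium and intraflagellar transport had a smaller median log2 fold change of -0.10, with 32 of 46 negative, 8 lower and 0 higher at an unadjusted p under 0.05, and a level with an r of 0.87 to the 43 genes. B9d1 of that list had 2117, 1963, 1782, 2082 and 1694 in the females, against 2195 through 2394 to 3197 in the males, without overlap, and an adjusted p of 0.0346 in the authors' deposited table. The 3 genes of highest mean in that list, Tubb4b, Ift27 and Kifap3, had limma adjusted p of 0.867, 0.351 and 0.846.

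Genes of the multiciliated fate had no common direction between the sexes. Of 13 listed, with Mcidas among them, 10 passed the filter and 5 had a negative log2 fold change, with a median of 0.02, and their level had an r of 0.32 with that of the 43 genes. Sntn was listed at 0 in all embryos, Gmnc, which acts upstream of Mcidas, averaged 32.5, and Deup1, which builds centrioles in multiciliated cells, averaged 58.8. The maternal epithelium of uterus and oviduct also holds motile cilia, and its 10 listed markers were spread over all levels. Sprr2f was listed at 0 in all embryos, Lcn2 averaged 0.19, the oviduct gene Ovgp1 1.94, Ltf 13.8, Muc1 43.6 and Pax8 47.1. Epcam averaged 34567, Krt7 4316, Foxa2 3429.6 and Wfdc2 3387. Foxa2 is also listed for the node and for endoderm, so its level does not mark this epithelium. In whole-embryo libraries, embryonic and maternal RNA of these high genes cannot be told apart. The part of this epithelium in the values was not tested. The level of the 6 uterine and oviduct genes past the filter, of 10 listed, had an r of 0.07 with that of the 43. Epcam, Krt7 and Foxa2 are among those 6.

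Visceral endoderm, the outer layer of the embryo, went against the 43 genes over embryos. Its 12 listed genes summed to between 390504 and 547009 normalized counts in females and between 206924 and 460206 in males, and their level had an r of -0.81 with that of the 43 genes. All 12 had a positive log2 fold change (median 0.59, female over male), 9 of them at an unadjusted p under 0.05, and none passed the limma threshold. Over all genes, 50.2% had a negative change, and 5.13% were higher in females at that p. The authors' deposited table calls 2 of the 12 higher in females, Trf with an adjusted p of 0.000707 and Afp with 0.00866. The 18 node and notochord genes had a median of 0.14 and an r of -0.43 with the 43 genes, and 10 definitive endoderm genes an r of -0.45. The node list went both ways: 8 of the 18 were negative, and 3 were lower and 5 higher in females at an unadjusted p under 0.05. Apart from Noto itself, these node genes had a median r with Noto of -0.32, and 4 had an r of 0.5 or more. The next 4 genes were picked after their values were seen, and none passed the limma threshold. Gsc, an early organizer gene, was between 2191 and 2592 in females, while males 2, 5 and 7 were at 228, 253 and 120.2, male 4 at 550.5, and males 1, 3 and 6 between 1696 and 2861. Lefty1, a Nodal antagonist, ranged from 449.8 to 1816 in the females, and males 1 to 7 had 1451, 2.80, 425, 33.7, 24.5, 462 and 0. T, the streak and notochord gene Brachyury, was between 4344 and 6228 in females and between 5405 and 14152 in males, highest in male 7. Male 6, the highest embryo for 15 of the 43 genes, had 2037 of Gsc, 462 of Lefty1 and 5925 of T, the last 2 inside the female range. Shh, which the notochord expresses, was listed at 0 in 4 of 5 females and 1 of 7 males, and was at most 51.5. The part of these genes and of visceral endoderm in the sex difference was not tested. Markers of parietal endoderm (r = -0.02), trophoblast (r = -0.03), streak (r = -0.04), adult blood (r = -0.14) and decidua (r = -0.39), and RFX and forkhead factors outside the 47 (r = -0.18), lay closer to 0 in their relation to the level of the 43 genes.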

How the data were processed

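RNA from 12 single embryos was sequenced from both ends of each fragment, per the labels' protocols. Per the submitters' processing notes, the tools were DESeq2 1.34.0, Salmon 1.5.2, STAR 2.7.7a and cutadapt 4.1, with the mm10 build and no settings given. The values per embryo were deposited by the authors on a log2 scale, variance-stabilized with a floor of 10.4141. A deposited column of mean signal is in normalized counts. Each gene also has a deposited log2 fold change, female over male, and deposited p-values before and after adjustment, used as the authors' values alone.

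The transformation was inverted in closed form. For 25183 of 25451 genes with a mean above 0 (98.95%), and all 47 described here, the inverted mean equalled the deposited one within a relative 1e-06. Between 86.4% and 88.5% of low values were whole multiples of the value of 1 fragment to within 0.1, so no count model was used.

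The sexes were compared by limma 3.58.1 under R 4.3.3 (mean-variance trend, two-sided, all 12 embryos, sex as the only term) on log2(normalized count + 1), a scale that understates the change of low genes. Each embryo was 1 animal. Members and lists were chosen with earlier results of these data known, and the comparison within litters and the 13-base motif were added after the values were seen. Genes named in full were Foxj1, Rfx3, those called in either table, the highest per kilobase in each role and those closest to and farthest from Foxj1. Others were named after their values were seen. Coordinates are GRCm38 (mm10) from GENCODE M21, counted from 1. Exon overlap was computed on either strand. The alternatives were other pseudocounts and filters, the deposited log2 values, litter and replicate blocks, and each embryo left out.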

Additional observations from a re-analysis of the deposited data

Results flagged for a closer look

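In 5 of 44 groups examined, 1 embryo stood far from the others of its sex, where chance gives about 1 group in 20. Rfx3 was 2912 normalized counts in male 6, against 1528 to 1895 in the other males. Spef2 was 134 in female 5, against 19.0 to 27.6 in the other females. Dnah2 was 245 in male 3, against 10.1 to 109 in the other males. Nog stood apart in both sexes, at 808 in female 5, against 48.5 to 154 in the other females, and at 539 in male 4, against 111 to 248 in the other males.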

How the results depend on the processing

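Results for 20 named genes were refitted under up to 19 settings, which gave 374 pairs of gene and setting. In 359 the direction and the side of the threshold held, in 13 the direction turned and in 2 a gene newly passed. The count of all genes called was 7, 4 with litter as a block, 4 with the replicate block and 5 to 9 without 1 embryo. The replicate numbers do not pair the embryos: same-numbered embryos had correlations of their deviations between -0.0681 and 0.0092, and 0 of 5 females correlated best with the male of its own number. The count of the 43 motile cilium genes called was 0, 1 with a pseudocount of 0.1 (Dnaic2) and 0 to 1 without 1 embryo (1, Tppp3, without male 1). Over the alternatives the adjusted p ran from 0.00718 to 0.613 for Tppp3, 0.0453 to 0.613 for Dnaic2, 0.0692 to 0.649 for Stk33, 0.14 to 0.649 for Cfap126, 0.116 to 0.64 for Cfap52 and 0.0804 to 0.649 for Dynlrb2.

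The log2 fold changes that turned were those of Dnah1 (-0.015 on variance-stabilized values, -0.21 with the litter block, -0.18 without male 1, -0.15 without male 5, -0.049 without female 4, -0.18 to 0.50 without 1 embryo), Dnah2 (0.00034 on variance-stabilized values, 0.69 with the litter block, 0.62 without female 2, 0.083 without male 3, -0.66 to 0.62 without 1 embryo), Dnaic1 (0.37 with the litter block, 0.14 without female 2, -0.44 to 0.14 without 1 embryo), Ccdc40 (-0.043 without male 7, -0.043 to 0.21 without 1 embryo) and Spef2 (0.20 with the replicate block); the cause was not tested. Without 1 embryo, the r of Foxj1 with Noto ran from 0.709 to 0.871, with Chrd from 0.180 to 0.648 and with Nog from -0.246 to 0.0479, the last without male 4. The median r over pairs of the 43 genes ran from 0.224 to 0.339 and was 0.154 with values centred within sex, and the median r with Foxj1 ran from 0.385 to 0.581. Depth limits genes near 0: a value listed at 0 allows a level of up to about 3 fragments per library.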
